A study of Mus musculus with 20 samples.

Results

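The 35 genes described here encode the machinery with which cells copy their DNA and divide. They were taken by symbol from a list of 36 mitotic and DNA replication genes, and 35 of the 36 had a probe set that carries their symbol alone, out of 19936 genes tested. Ccnb1, a cyclin partner of Cdk1, was not analysed here. By role they are Cdk1 and 4 cyclins, 7 mitotic kinases and spindle checkpoint genes, 2 partners of the anaphase-promoting complex, 8 kinetochore, spindle and chromosome genes, 8 genes of replication licensing and the replicative helicase, 4 genes of the replication clamp and nucleotide synthesis, and the transcription factor gene E2f1. The first 20 of these without the E-type cyclins are called the mitotic genes below, and the other 15, which act at the entry to and during DNA synthesis, the replication genes.

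RNA came from single whole limbs of 129Sv mouse embryos at embryonic day 13.5, hybridised to Affymetrix GeneChip 1.0 ST arrays, 1 limb to an array. The 20 arrays form 4 groups of 5: Lmx1b -/- (knockout) hindlimbs, Lmx1b -/- forelimbs, wild-type hindlimbs and wild-type forelimbs, all of the same strain and age, with no treatment and no Cre driver named in the labels. Lmx1b encodes a LIM-homeodomain factor that gives dorsal limb mesenchyme its identity, and the study set limbs without it against wild-type limbs. Hindlimb arrays carry the numbers 6 to 10 and forelimb arrays 1 to 5. Whether any of the limbs share an embryo is not in the labels, and the p-values here cover only how far arrays of a group scatter, which may be partly technical.

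A dividing cell first licenses its replication origins with the Cdc6 and Mcm2 to Mcm7 proteins, makes nucleotides and copies its DNA once, and then enters mitosis when Cdk1 becomes active with a cyclin. Aurora and polo-like kinases and the spindle checkpoint align the chromosomes, and the anaphase-promoting complex with Cdc20 and Ube2c then destroys mitotic proteins so that the chromosomes separate. Transcripts of this machinery are made mainly in cycling cells: in limb buds the undifferentiated mesenchyme cycles, whereas muscle fibres and maturing cartilage leave the cycle.

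Many promoters of late cell cycle genes carry a CHR element (TTTGAA or TTTAAA), which binds the DREAM and MuvB complexes, beside CCAAT boxes, which bind NF-Y, while promoters of genes used at the start of DNA synthesis often carry E2F sites. RefSeq promoter windows of 300 bases on GRCm38.p6, from 250 bases before to 50 after the transcription start, matched 29 of the 35 genes; Ccna2, Ccne2, Aurkb, Kif20a, Tpx2 and Mcm4 had no entry. The motifs searched on both strands were TTTGAA and TTTAAA for the CHR, CCAAT for the CCAAT box, and for E2F 4 spellings, TTGGCGC with the variants TTCGCGC, beside these TTCCCGC, and lastly TTGCCGC. The CHR spelling TTTAAA reads alike on both strands. The windows of the 6 genes that passed a test in at least 1 comparison of this study are shown 5′ to 3′ along each gene's strand, since the results turn on these genes, with every match in capitals (a match on the other strand reads ATTGG or TTCAAA).
Cdk1, chr10:69352863-69353162: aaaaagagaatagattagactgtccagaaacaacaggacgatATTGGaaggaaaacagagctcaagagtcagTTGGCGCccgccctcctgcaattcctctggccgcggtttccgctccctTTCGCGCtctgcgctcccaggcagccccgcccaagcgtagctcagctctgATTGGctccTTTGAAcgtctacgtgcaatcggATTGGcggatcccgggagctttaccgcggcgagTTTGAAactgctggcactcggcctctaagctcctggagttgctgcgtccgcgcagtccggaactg
Aurka, chr2:172370521-172370820: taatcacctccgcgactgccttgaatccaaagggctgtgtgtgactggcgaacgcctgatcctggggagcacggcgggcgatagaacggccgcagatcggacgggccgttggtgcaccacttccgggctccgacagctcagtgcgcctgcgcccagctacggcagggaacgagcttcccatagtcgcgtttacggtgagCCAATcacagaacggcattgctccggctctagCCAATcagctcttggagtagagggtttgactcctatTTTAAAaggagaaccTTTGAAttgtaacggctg
Bub1, chr2:127831810-127832109: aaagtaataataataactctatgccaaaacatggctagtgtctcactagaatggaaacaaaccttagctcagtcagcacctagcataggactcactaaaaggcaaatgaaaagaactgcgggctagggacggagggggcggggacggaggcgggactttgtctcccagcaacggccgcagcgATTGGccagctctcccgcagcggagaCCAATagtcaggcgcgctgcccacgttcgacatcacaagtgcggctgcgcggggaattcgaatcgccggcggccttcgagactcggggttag
Ttk, chr9:83834439-83834738: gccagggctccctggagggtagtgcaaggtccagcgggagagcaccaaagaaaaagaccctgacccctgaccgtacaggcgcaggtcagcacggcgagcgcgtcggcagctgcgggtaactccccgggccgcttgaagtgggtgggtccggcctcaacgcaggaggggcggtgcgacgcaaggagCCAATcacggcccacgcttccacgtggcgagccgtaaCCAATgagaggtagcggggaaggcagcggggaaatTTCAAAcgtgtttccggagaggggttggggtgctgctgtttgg
Ube2c, chr2:164769679-164769978: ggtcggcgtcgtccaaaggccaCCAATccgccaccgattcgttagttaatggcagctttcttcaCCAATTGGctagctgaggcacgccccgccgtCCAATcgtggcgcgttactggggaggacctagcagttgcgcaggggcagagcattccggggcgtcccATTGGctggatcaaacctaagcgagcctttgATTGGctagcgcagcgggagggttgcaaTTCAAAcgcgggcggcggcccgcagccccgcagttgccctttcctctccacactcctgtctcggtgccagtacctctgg
Nusap1, chr2:119618048-119618347: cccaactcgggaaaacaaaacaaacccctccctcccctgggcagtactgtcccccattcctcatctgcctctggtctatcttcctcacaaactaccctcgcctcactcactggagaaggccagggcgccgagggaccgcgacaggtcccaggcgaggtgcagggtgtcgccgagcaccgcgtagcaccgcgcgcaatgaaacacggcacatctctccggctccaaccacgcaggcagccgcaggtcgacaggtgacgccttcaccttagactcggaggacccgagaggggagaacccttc
The Cdk1 window (minus strand) held 2 CHR, 3 CCAAT and 2 E2F matches, its CHR nearest to the start beginning at position -15. In the Aurka window (minus strand) 2 CCAAT and 2 CHR matches lay between positions -51 and 32, and in the Ttk window (plus strand) 2 CCAAT matches at -65 and -28 were followed by a CHR match at 7. The Ube2c window (plus strand) held 6 CCAAT matches, of which those at -186 and -183 overlap on opposite strands, and a CHR match at -29. Bub1 (minus strand) had 2 CCAAT matches and no CHR match, and the Nusap1 window (plus strand) held none of the letters searched. Among the 29 genes, 19 had a CHR match against 30.6% of all 27025 genes with a window, 23 had a CCAAT match against 41.1%, 17 had both against 12.2%, and 9 had an E2F match against 10.9%. The 2 sides of the cycle differed in which letters they held: 13 of 16 mitotic genes had both CHR and CCAAT and 2 of 16 (Cdk1 and Mki67) an E2F match, whereas 4 of 13 replication genes had both CHR and CCAAT and 7 of 13 (Cdc6, Mcm3, Mcm5, Mcm6, Mcm7, Rrm1 and Rrm2) an E2F match. These matches describe letters in the windows and are not shown to be bound sites.

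Deposited intensities ran from 1.65 to 13033 with array medians of 28.6 to 31.8, and their log2 is used throughout, so every change below is a difference of log2 values. A gene passed the test when the Benjamini-Hochberg adjusted p of limma, over all 19936 genes, was under 0.05. Lmx1b itself averaged 5.92 ± 0.11 in knockout hindlimbs and 5.72 ± 0.079 in knockout forelimbs, against 6.45 ± 0.083 in wild-type hindlimbs and 6.30 ± 0.13 in wild-type forelimbs (log2 intensity, SD, n = 5 each here and below), lower in knockouts by 0.55 over both limb types (SE 0.049, adjusted p = 2.63e-07). Limb type matched its markers, since the hindlimb genes Tbx4 and Pitx1 averaged at least 7.66 and 8.43 in both hindlimb groups and at most 6.20 and 5.52 in both forelimb groups, and the forelimb gene Tbx5 at most 4.73 in hindlimbs and at least 8.50 in forelimbs. Y-linked transcripts marked 13 arrays as male and 7 as female. All 5 wild-type forelimbs were male, 3 of 5 knockout forelimbs were female, and in both hindlimb groups 3 arrays were male and 2 female.

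Averaged over the 35 genes, knockout hindlimbs were highest and wild-type forelimbs lowest, but the arrays of every pair of groups overlapped. Even of these 2 groups, knockout hindlimb 6 was at 8.11 and wild-type forelimb 1 at 8.15. The per-array mean was 8.22 ± 0.065 in knockout hindlimbs, 8.14 ± 0.13 in knockout forelimbs, 8.16 ± 0.042 in wild-type hindlimbs and 8.02 ± 0.087 in wild-type forelimbs. Gene by gene the highest and lowest groups were the same for most: 28 of 35 had their highest group mean in knockout hindlimbs and 31 of 35 their lowest in wild-type forelimbs. These counts were not made over all genes. The 35 genes also varied together within groups, with a median pair correlation of 0.57, so the counts are not 35 separate results. In a whole limb, fewer cycling cells and less of these RNAs per cycling cell cannot be told apart. Knockout forelimbs were the most scattered group, from 7.96 in array 5 to 8.31 in array 4. The mean of the mitotic genes was 8.17 ± 0.038 in knockout hindlimbs, 8.08 ± 0.13 in knockout forelimbs, 8.10 ± 0.046 in wild-type hindlimbs and 7.94 ± 0.088 in wild-type forelimbs, and that of the replication genes was 8.29 ± 0.10 in knockout hindlimbs, 8.23 ± 0.14 in knockout forelimbs, 8.25 ± 0.052 in wild-type hindlimbs and 8.14 ± 0.087 in wild-type forelimbs.

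**Figure D1:**
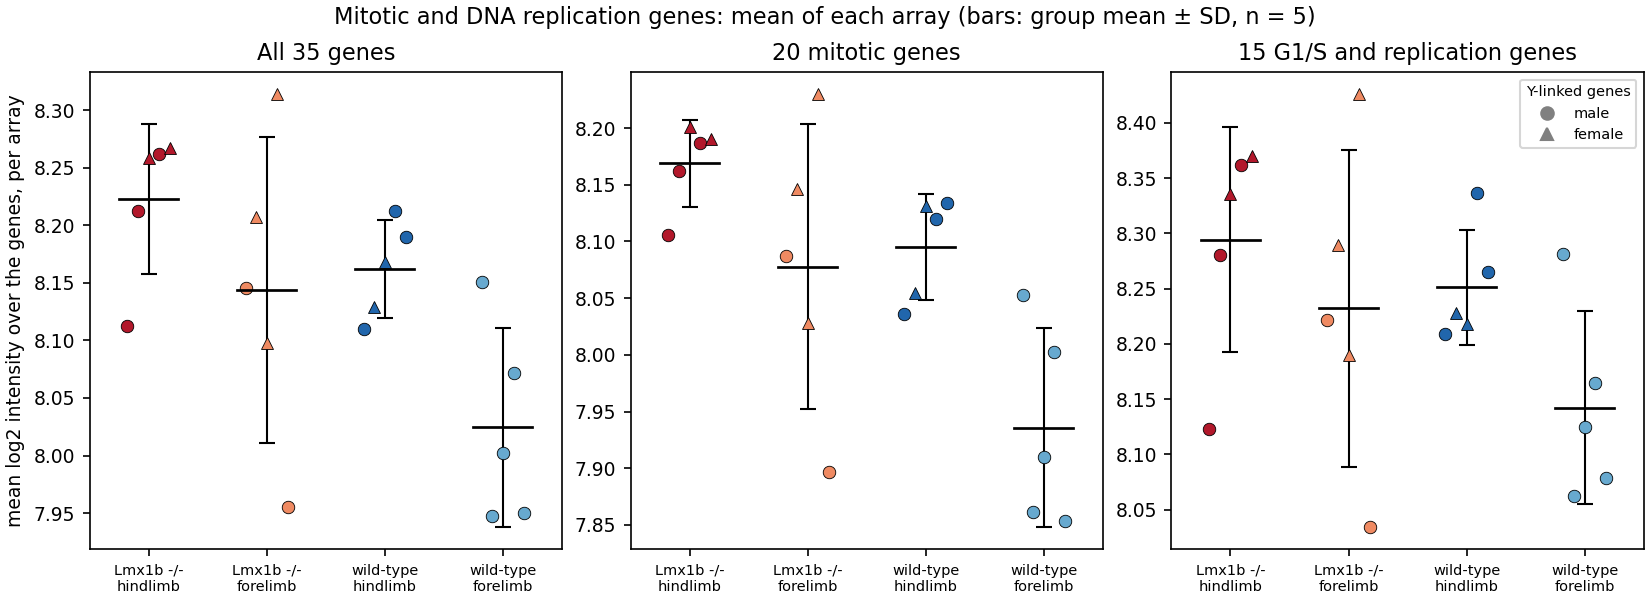
Mean log2 intensity of each array over all 35 genes (left), the 20 mitotic genes (middle) and the 15 replication genes (right), by group. Points are arrays (circles male, triangles female), lines are group means and bars ± SD (n = 5); knockout hindlimbs average 8.22 and wild-type forelimbs 8.02 over all 35 genes, and knockout forelimbs spread from 7.96 to 8.31.

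Between genotypes Cdk1 alone of these genes passed the test, higher in knockouts. Over both limb types 34 of 35 averaged higher in knockouts than in wild type, against 9755 of all 19936 genes. The median change of the 35 was 0.09 (0.03 in male arrays and 0.14 with the erythroid covariate). The test passed 1 as higher and 0 as lower of 35, where 0.466% of all genes passed as higher and 1.57% as lower. At an unadjusted p under 0.05, 13 of the 35 were higher, against 6.33% of all genes. The median change of all genes was -0.002. For the mitotic genes the median was 0.10, with 1 of 20 past the test and 10 of 20 at the unadjusted level, and for the replication genes 0.06, with 0 of 15 and 3 of 15.

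In forelimbs alone the median change was 0.14, knockout over wild type, with 32 of 35 above 0, against 10053 of all 19936 genes. All wild-type forelimbs were male and 3 of 5 knockout forelimbs female, and the median was 0.04 in male arrays, 0.09 with the Y-linked covariate and 0.09 with the muscle covariate. There 0 of 35 passed limma's test, while 0.241% of all genes passed as higher and 1.03% as lower; 16 of 35 were higher at an unadjusted p under 0.05, against 5.61% of all genes. Cdk1 was the single gene whose 5 knockout forelimb arrays all lay above all 5 wild-type forelimb arrays, an arrangement that 0.813% of all genes showed. In hindlimbs the median was 0.05 with 29 of 35 above 0, against 9630 of all 19936 genes. It was 0.09 without knockout hindlimb 6 and 0.006 in male arrays. Again 0 of 35 passed, where 0.00502% of all genes passed as higher and 0.226% as lower. At an unadjusted p under 0.05, 1 of 35 (Top2a) was higher in knockout hindlimbs, against 2.15% of all genes, and Bub1 was the single gene without overlap, against 0.587%. The genotype effect in hindlimbs minus that in forelimbs had a median of -0.09, which was -0.03 without knockout forelimb 4, -0.05 without wild-type forelimb 5, -0.04 with the Y-linked covariate, -0.02 in male arrays, -0.15 with the erythroid covariate and -0.009 with the muscle covariate (-0.008 for all genes in that fit). There 0 of 35 passed, against 0.0201% of all genes as higher and 0% as lower. At the unadjusted level 3 of 35 (Ube2c, Nusap1 and Ccnb2) had a smaller effect in hindlimbs, against 1.55% of all genes, and 0 of 35 a larger one, against 2.07%. These comparisons share arrays: each wild-type and knockout group enters the pooled comparison, its own limb's comparison and the difference, and the wild-type forelimbs also enter the wild-type limb-type comparison that follows.

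Between limb types, several mitotic genes were higher in hindlimbs than in forelimbs. In wild-type limbs Nusap1, Ube2c and Aurka passed the test, all higher in hindlimbs, 3 higher and 0 lower of 35, where 0.772% of all genes passed as higher and 2.49% as lower. The median of the 35 was 0.15, hindlimb over forelimb, against 0.017 for all genes, and 18 of 35 were higher at an unadjusted p under 0.05, against 7.35%. Hindlimb arrays lay wholly above forelimb arrays for 6 of the 35 (Aurka, Bub1, Ccna2, Nusap1, Ttk and Ube2c), an arrangement of 1.78% of all genes. By side of the cycle the median was 0.18 for the mitotic genes, 3 of 20 past the test, and 0.11 for the replication genes, 0 of 15 past it and 3 of 15 at the unadjusted level.

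In knockouts the median was 0.08, hindlimb over forelimb, with 34 of 35 above 0, against 10285 of all 19936 genes. It was 0.14 without knockout forelimb 4, 0.04 without knockout forelimb 5, 0.16 in male arrays, and 0.04 and 0.03 with the muscle and erythroid covariates. None of the 35 passed limma's test there, where 0.176% of all genes passed as higher and 0.441% as lower. At the unadjusted level 1 of 35 (Bub1) was higher in knockout hindlimbs, against 5.11% of all genes, and no gene of the 35 had hindlimb arrays wholly above forelimb arrays, against 0.788%. Over both genotypes 5 of 35 passed as higher in hindlimbs (Nusap1, Bub1, Aurka, Ttk and Ube2c) and 0 as lower, where 1.97% of all genes passed as higher and 3.99% as lower. The median was 0.11 there, and 16 of 35 were higher at an unadjusted p under 0.05, against 10.5% of all genes. The difference between the limb-type effects of the genotypes is the same contrast as the genotype effect in hindlimbs minus that in forelimbs, which 0 of 35 passed, with 3 lower at an unadjusted p under 0.05 in limma.

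**Figure D2:**
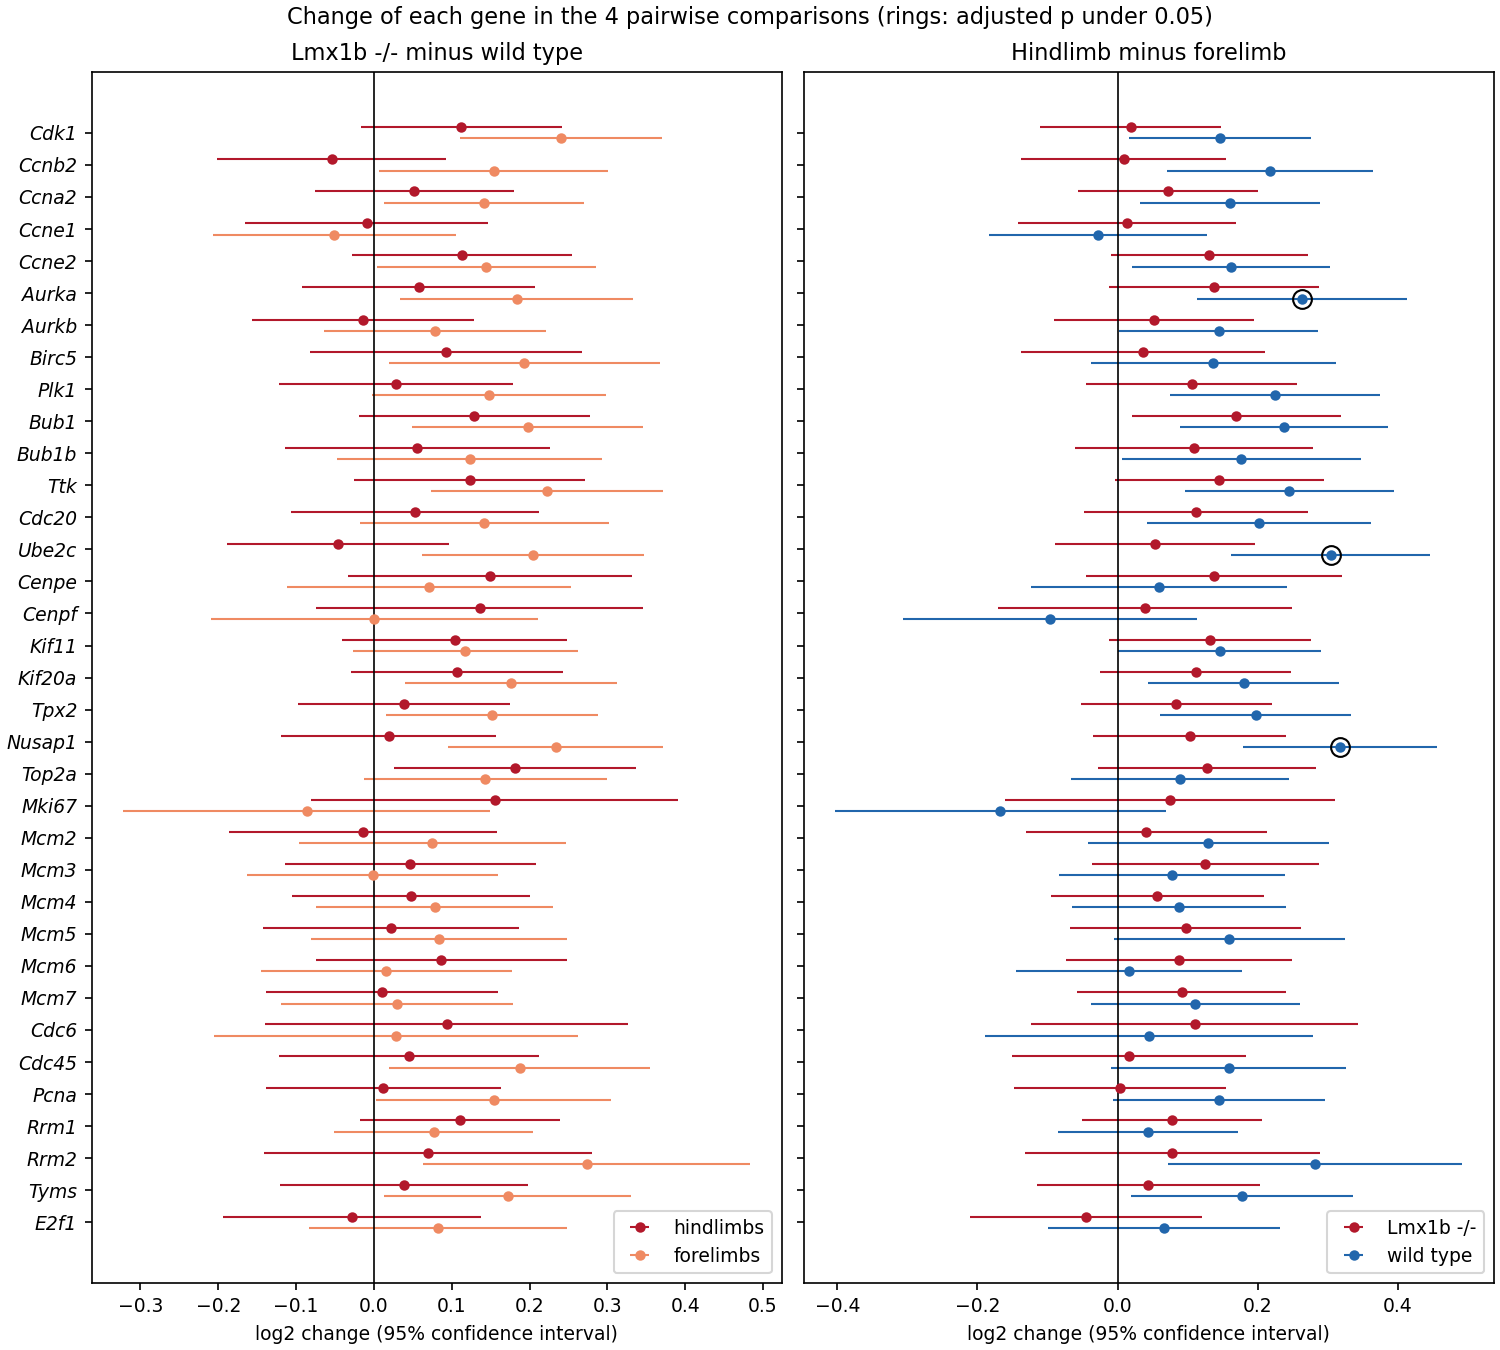
Log2 change of each of the 35 genes with its 95% confidence interval, knockout minus wild type (left panel, hindlimbs and forelimbs) and hindlimb minus forelimb (right panel, knockout and wild type). Rings mark an adjusted p under 0.05: in these 4 pairwise comparisons Aurka, Ube2c and Nusap1 carry one, in wild-type hindlimbs over forelimbs, and most other points lie to the right of 0.

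Cdk1, the kinase that drives entry into mitosis, had the smallest p of the 35 in the pooled genotype comparison. In array order Cdk1 was at 8.21, 8.29, 8.28, 8.31 and 8.30 in knockout hindlimbs and at 8.30, 8.28, 8.21, 8.33 and 8.19 in knockout forelimbs. It was at 8.01, 8.13, 8.08, 8.31 and 8.30 in wild-type hindlimbs and at 8.15, 7.97, 8.02, 8.03 and 7.93 in wild-type forelimbs. All knockout arrays were at 8.19 or above, all wild-type forelimbs at 8.15 or below, and wild-type hindlimbs were split, with arrays 9 and 10 at the knockout level. Knockout minus wild type was 0.18 over both limb types (1.13-fold, SE 0.044, adjusted p = 0.0399), 0.24 in forelimbs (SE 0.062, adjusted p = 0.0611) and 0.11 in hindlimbs (SE 0.062, adjusted p = 0.921), so that the pooled change passed and the 2 separate ones did not. That call sat close to the threshold: of 20 fits that leave out 1 array it held in 6, those without wild-type forelimb 1, wild-type hindlimb 9 or 10, knockout forelimb 3 or 5 or knockout hindlimb 6, with adjusted p from 0.0182 to 0.0816 over the 20. The call was also lost in 6 of 13 other fits. In male arrays alone the change was 0.14 (adjusted p = 0.644), and with each array's muscle marker mean as a covariate it was 0.14 (adjusted p = 0.408). The remaining losses were with centred arrays (limma adjusted p = 0.0979), quantile normalisation (0.0556), the Y-linked covariate (0.0618) and the erythroid covariate (0.0808). Within each sex the 2 male and 3 female knockout forelimbs were at 8.19 to 8.30 and at 8.21 to 8.33, against 7.93 to 8.15 in the 5 male wild-type forelimbs.

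Of the mitotic cyclins, which bind and activate Cdk1, Ccnb2 was measured as follows. The knockout arrays gave 9.11, 9.10, 9.07, 9.10 and 9.06 for Ccnb2 in hindlimbs and 9.09, 9.04, 8.96, 9.27 and 9.02 in forelimbs. The wild-type arrays gave 9.04, 9.07, 9.14, 9.28 and 9.17 in hindlimbs and 9.11, 8.83, 8.87, 9.05 and 8.76 in forelimbs. Wild-type forelimbs 2, 3 and 5 were the lowest arrays, and every pair of groups overlapped. Hindlimb minus forelimb was 0.22 in wild type (SE 0.071, adjusted p = 0.101) and 0.01 in knockouts (adjusted p = 0.988), and the genotype effect in hindlimbs minus that in forelimbs was -0.21 (95% interval -0.42 to -0.00075, adjusted p = 1). Ccna2, whose cyclin serves both DNA synthesis and mitosis, averaged 8.91 ± 0.053 in knockout hindlimbs, 8.84 ± 0.11 in knockout forelimbs, 8.86 ± 0.050 in wild-type hindlimbs and 8.70 ± 0.11 in wild-type forelimbs, and its wild-type hindlimb arrays lay above its wild-type forelimb arrays (change 0.16, adjusted p = 0.178).

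The E-type cyclins, which act with Cdk2 at the start of DNA synthesis, did not move alike. Ccne2 read 6.91, 6.75, 6.75, 6.84 and 6.95 in knockout hindlimbs and 6.74, 6.89, 6.58, 6.78 and 6.57 in knockout forelimbs. In wild type it read 6.66, 6.74, 6.68, 6.80 and 6.76 in hindlimbs and 6.67, 6.44, 6.66, 6.53 and 6.51 in forelimbs. For Ccne2 the knockout hindlimbs were highest as a group, at 6.84 ± 0.091, and wild-type forelimbs lowest, at 6.57 ± 0.099, and the arrays of those 2 groups did not overlap. That pair was picked after the means were seen and differs in both genotype and limb type. How many of all genes lack overlap between them was not counted. Hindlimb minus forelimb was 0.13 in knockouts (SE 0.068, adjusted p = 0.551) and 0.16 in wild type (adjusted p = 0.224). Ccne1 was flat, at 7.91 ± 0.15 in knockout hindlimbs, 7.90 ± 0.14 in knockout forelimbs, 7.92 ± 0.072 in wild-type hindlimbs and 7.95 ± 0.076 in wild-type forelimbs, and it was the 1 gene of 35 whose pooled knockout minus wild-type change was below 0 (-0.03, adjusted p = 0.851).

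Of the 7 mitotic kinase and checkpoint genes, 3 passed as higher in hindlimbs when both genotypes were pooled, against 1.97% of all genes. In knockouts alone 0 of 7 passed. Aurka encodes the aurora kinase of the spindle poles. In array order Aurka was at 8.25, 8.31, 8.43, 8.38 and 8.39 in knockout hindlimbs and at 8.25, 8.20, 8.17, 8.47 and 7.99 in knockout forelimbs. It was at 8.27, 8.27, 8.22, 8.38 and 8.34 in wild-type hindlimbs and at 8.16, 8.07, 7.97, 8.04 and 7.92 in wild-type forelimbs. Every wild-type hindlimb was above every wild-type forelimb, the closest being hindlimb 8 at 8.22 and forelimb 1 at 8.16, whereas knockout forelimbs ran from 7.99 in array 5 to 8.47 in array 4, the highest of all 20 arrays. The hindlimb minus forelimb change was 0.26 in wild type (SE 0.072, adjusted p = 0.0465), 0.14 in knockouts (SE 0.072, adjusted p = 0.557) and 0.20 over both (SE 0.051, adjusted p = 0.0211). In wild type the call held in 5 of 20 fits that leave out 1 array, those without wild-type forelimb 1, wild-type hindlimb 8, knockout forelimb 4 or 5 or knockout hindlimb 6 (adjusted p from 0.0202 to 0.141), and over both genotypes it held in all 20 (highest 0.0452). The wild-type call was lost in 7 of 14 other fits, those with centred arrays, the Y-linked or side covariate, male arrays, either block by description number, and the muscle covariate, where the change was 0.07 (adjusted p = 0.998). The pooled call was lost with centred arrays (adjusted p = 0.088), in male arrays (0.083) and with the muscle covariate (change 0.056, adjusted p = 0.978). Muscle marker means did not overlap between wild-type limb types. That covariate therefore hardly separates from limb type, here and for the genes below.

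Bub1 encodes a kinase of the spindle checkpoint. The knockout arrays gave 8.86, 8.89, 8.89, 8.88 and 8.88 for Bub1 in hindlimbs and 8.71, 8.79, 8.56, 8.88 and 8.60 in forelimbs. The wild-type arrays gave 8.83, 8.65, 8.84, 8.75 and 8.68 in hindlimbs and 8.61, 8.63, 8.35, 8.62 and 8.35 in forelimbs. Knockout hindlimbs were tightly grouped and lay above all wild-type hindlimbs, and all wild-type hindlimbs lay above all wild-type forelimbs. Hindlimb minus forelimb was 0.20 over both genotypes (1.15-fold, SE 0.051, adjusted p = 0.0181), 0.17 in knockouts (SE 0.071, adjusted p = 0.42) and 0.24 in wild type (adjusted p = 0.0716). The pooled call held without any single array and was lost with centred arrays (adjusted p = 0.0724), in male arrays (0.136) and with the muscle covariate (change 0.07, adjusted p = 0.965). Knockout minus wild type was 0.16 over both limb types (SE 0.051, adjusted p = 0.108) and 0.13 in hindlimbs (adjusted p = 0.921).

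Ttk, also known as Mps1, encodes the kinase that sets the spindle checkpoint in motion. Ttk read 7.42, 7.29, 7.49, 7.47 and 7.52 in knockout hindlimbs and 7.23, 7.35, 7.24, 7.53 and 7.12 in knockout forelimbs. In wild type it read 7.24, 7.20, 7.40, 7.33 and 7.40 in hindlimbs and 7.19, 7.09, 6.9996, 7.07 and 6.9994 in forelimbs. All wild-type hindlimbs were above all wild-type forelimbs, the closest values being 7.20 in hindlimb 7 and 7.19 in forelimb 1. Hindlimb minus forelimb was 0.20 over both genotypes (1.14-fold, SE 0.051, adjusted p = 0.0242), 0.15 in knockouts (adjusted p = 0.521) and 0.25 in wild type (SE 0.072, adjusted p = 0.0642). The pooled call was lost without knockout hindlimb 10 (adjusted p = 0.0513) and held without any other single array. It was also lost with centred arrays (adjusted p = 0.0965), in male arrays (0.077), under the description-number replicate block (0.0667) and with the muscle covariate (change 0.057, adjusted p = 0.978). Knockout minus wild type was 0.17 over both limb types (SE 0.051, adjusted p = 0.0863) and 0.22 in forelimbs (adjusted p = 0.155).

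The other 4 genes of this set did not pass in any comparison. Plk1, the polo-like kinase, had the largest of their wild-type hindlimb minus forelimb changes, 0.22 (SE 0.072, adjusted p = 0.0963), at 8.31 ± 0.074 in hindlimbs and 8.08 ± 0.099 in forelimbs. Bub1b, which encodes the checkpoint protein BubR1, was at 0.18 (adjusted p = 0.283) in the same comparison. Aurkb and Birc5, which encode the kinase and the survivin subunit of the chromosomal passenger complex, differed by 0.14 (adjusted p = 0.297) and 0.14 (adjusted p = 0.447). In knockout minus wild type over both limb types the 4 changes lay between 0.03 (Aurkb) and 0.14 (Birc5).

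Both genes that work with the anaphase-promoting complex averaged higher in wild-type hindlimbs, and Ube2c, its ubiquitin-conjugating enzyme, passed the test. In array order Ube2c was at 7.43, 7.46, 7.61, 7.44 and 7.55 in knockout hindlimbs and at 7.45, 7.42, 7.40, 7.65 and 7.32 in knockout forelimbs. It was at 7.55, 7.56, 7.49, 7.56 and 7.57 in wild-type hindlimbs and at 7.36, 7.03, 7.27, 7.34 and 7.20 in wild-type forelimbs. The wild-type hindlimb arrays ran from 7.49 to 7.57 and were all above the wild-type forelimbs, while knockout hindlimbs and forelimbs overlapped broadly. Hindlimb minus forelimb was 0.30 in wild type (1.23-fold, SE 0.069, adjusted p = 0.0149), 0.05 in knockouts (adjusted p = 0.871) and 0.18 over both (SE 0.049, adjusted p = 0.0313). The wild-type call held without any single array but was lost with centred arrays (adjusted p = 0.0618), in male arrays (0.0586) and with the muscle covariate (change 0.26, adjusted p = 0.998). The pooled call was lost under the same 3 (adjusted p up to 0.895), under the description-number replicate block (0.0722), and without knockout hindlimb 8 or 10, knockout forelimb 1 or 3, wild-type hindlimb 6, 7 or 9 or wild-type forelimb 2 or 5 (adjusted p up to 0.0649). Its genotype effect in hindlimbs minus that in forelimbs, -0.25 (95% interval -0.45 to -0.05), had the smallest p of the 35 in that comparison and an adjusted p of 1; the separate effects were -0.05 in hindlimbs and 0.20 in forelimbs (adjusted p = 0.178). Cdc20, the complex's mitotic activator, averaged 7.46 ± 0.11 in knockout hindlimbs, 7.34 ± 0.13 in knockout forelimbs, 7.40 ± 0.10 in wild-type hindlimbs and 7.20 ± 0.14 in wild-type forelimbs, with a wild-type hindlimb minus forelimb change of 0.20 (adjusted p = 0.175).

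**Figure D3:**
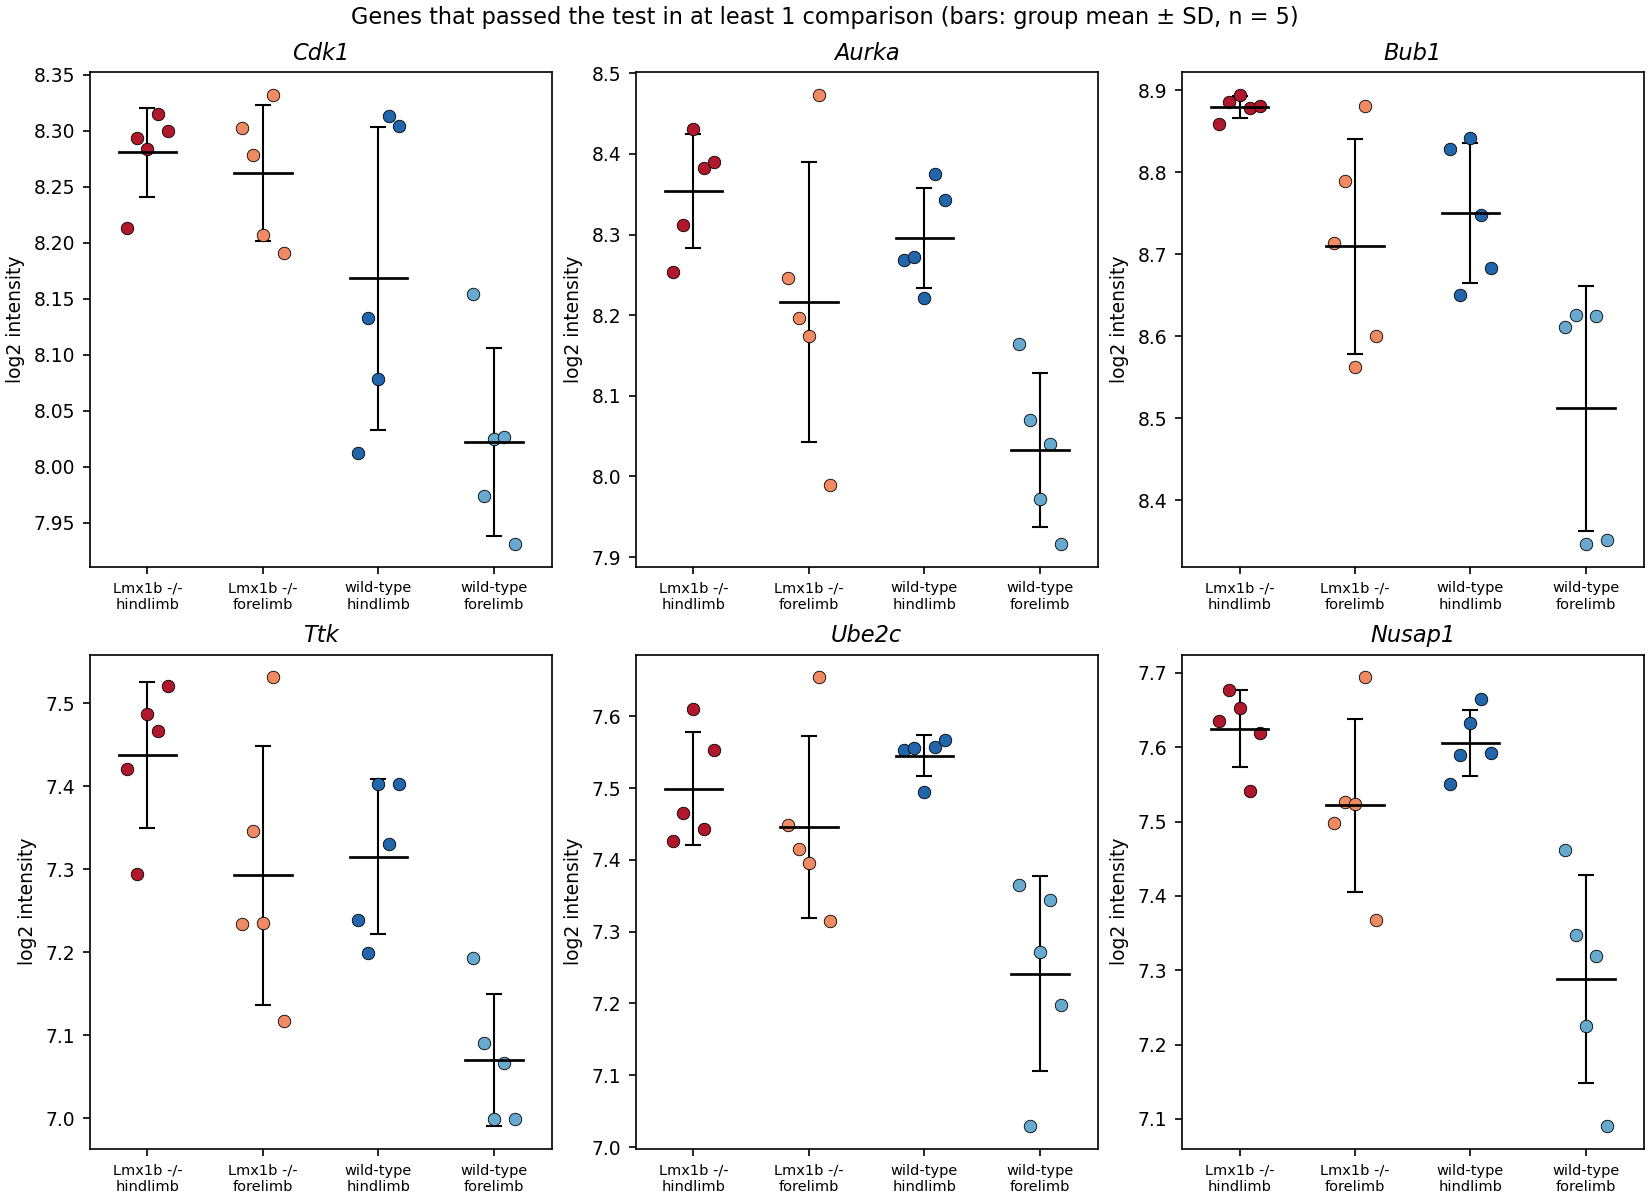
Log2 intensity of the 6 genes that passed the test in at least 1 comparison, by array and group; points are arrays, lines group means and bars ± SD (n = 5). Wild-type forelimbs average lowest in all 6 panels, Bub1 is at 8.86 to 8.89 in all knockout hindlimbs, and Ube2c is at 7.49 to 7.57 in all wild-type hindlimbs.

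Among the kinetochore, spindle and chromosome genes, Nusap1 passed and the other 7 did not. Nusap1 encodes a protein that binds spindle microtubules near chromosomes. The knockout arrays gave 7.64, 7.68, 7.65, 7.54 and 7.62 for Nusap1 in hindlimbs and 7.50, 7.53, 7.52, 7.69 and 7.37 in forelimbs. The wild-type arrays gave 7.55, 7.59, 7.63, 7.67 and 7.59 in hindlimbs and 7.46, 7.35, 7.22, 7.32 and 7.09 in forelimbs. Wild-type hindlimbs all exceeded wild-type forelimbs, the highest forelimb being array 1 at 7.46. The hindlimb minus forelimb change was 0.32 in wild type (1.25-fold, SE 0.066, adjusted p = 0.00951), 0.10 in knockouts (adjusted p = 0.675) and 0.21 over both (SE 0.047, adjusted p = 0.00933), and both calls held without any single array. The wild-type call was lost with arrays centred on their medians (adjusted p = 0.0509), in male arrays (0.0743) and with the muscle marker mean as a covariate (change 0.15, adjusted p = 0.998), and the pooled call under the same 3 (0.0618, 0.0975 and 0.951, the last with a change of 0.085). Knockout minus wild type was 0.23 in forelimbs (SE 0.066, adjusted p = 0.0979) and 0.02 in hindlimbs, the difference between them being -0.21 (95% interval -0.41 to -0.02, adjusted p = 1).

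Top2a encodes the topoisomerase that untangles sister chromatids. Top2a read 9.46, 9.63, 9.67, 9.84 and 9.68 in knockout hindlimbs and 9.45, 9.66, 9.42, 9.71 and 9.39 in knockout forelimbs. In wild type it read 9.42, 9.40, 9.51, 9.58 and 9.46 in hindlimbs and 9.50, 9.45, 9.27, 9.36 and 9.33 in forelimbs. Knockout hindlimb 6 was the 1 knockout hindlimb within the wild-type hindlimb range, and the forelimb groups overlapped. Knockout minus wild type was 0.18 in hindlimbs (SE 0.075, adjusted p = 0.786), the smallest p of the 35 there, and 0.16 over both limb types (SE 0.053, adjusted p = 0.13).

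Mki67, whose product Ki-67 coats mitotic chromosomes and is the usual protein marker of dividing cells, did not follow the others. In array order Mki67 was at 7.92, 8.06, 8.02, 7.97 and 7.84 in knockout hindlimbs and at 7.95, 8.21, 7.89, 7.80 and 7.59 in knockout forelimbs. It was at 7.48, 7.68, 8.14, 7.76 and 7.98 in wild-type hindlimbs and at 7.85, 7.79, 7.95, 8.08 and 8.20 in wild-type forelimbs. Wild-type hindlimbs spread from 7.48 to 8.14 and wild-type forelimbs had the highest group mean, so wild-type hindlimb minus forelimb was below 0 (-0.17, SE 0.11, adjusted p = 0.498). Its genotype effect in hindlimbs minus that in forelimbs was 0.24 (95% interval -0.09 to 0.58, adjusted p = 1). Cenpf, a kinetochore protein made late in the cycle, behaved similarly in wild type, with a hindlimb minus forelimb change of -0.10 (adjusted p = 0.692), and Cenpe, a kinetochore motor, differed by 0.06 (adjusted p = 0.796). The motors Kif11, which pushes the spindle poles apart, and Kif20a, needed for cytokinesis, differed by 0.15 (adjusted p = 0.299) and 0.18 (adjusted p = 0.151), and Tpx2, which activates the Aurka kinase on the spindle, by 0.20 (adjusted p = 0.109).

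Of the 8 genes of replication licensing and the helicase, 0 passed limma's test in each of the 7 comparisons. Their median was 0.05 for knockout minus wild type over both limb types and 0.10 for wild-type hindlimb minus forelimb, and at an unadjusted p under 0.05 there were 0 of 8 in each. The 6 subunits of the helicase ring, Mcm2 to Mcm7, differed by 0.02 (Mcm7) to 0.06 (Mcm4) in the pooled genotype comparison and by 0.02 (Mcm6) to 0.16 (Mcm5) between wild-type hindlimbs and forelimbs. Cdc6, which loads the ring, was the most scattered of the 8 in knockout forelimbs, at 6.64 ± 0.29 there and 6.75 ± 0.20 in knockout hindlimbs, against 6.66 ± 0.081 in wild-type hindlimbs and 6.61 ± 0.12 in wild-type forelimbs. Cdc45, which turns the loaded ring into an active helicase, had the largest pooled genotype change of the 8, 0.12 (SE 0.057, adjusted p = 0.351), and 0.19 in forelimbs (adjusted p = 0.311).

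Of the clamp and nucleotide synthesis genes, Rrm2 had the largest changes between forelimb genotypes and between wild-type limb types, and Rrm1, the other subunit of ribonucleotide reductase, was nearly even between wild-type limb types. The knockout arrays gave 9.76, 9.87, 9.97, 10.03 and 9.82 for Rrm1 in hindlimbs and 9.79, 9.86, 9.78, 9.89 and 9.74 in forelimbs. The wild-type arrays gave 9.68, 9.71, 9.79, 9.86 and 9.86 in hindlimbs and 9.84, 9.62, 9.74, 9.75 and 9.73 in forelimbs. Knockout hindlimbs 8 and 9 were the highest arrays, and all groups overlapped. Knockout minus wild type was 0.11 in hindlimbs for Rrm1 (SE 0.062, adjusted p = 0.924), and wild-type hindlimb minus forelimb 0.04 (adjusted p = 0.784). Rrm2, the subunit whose supply limits the enzyme outside DNA synthesis, averaged 8.84 ± 0.23 in knockout hindlimbs, 8.76 ± 0.19 in knockout forelimbs, 8.77 ± 0.11 in wild-type hindlimbs and 8.49 ± 0.13 in wild-type forelimbs, with changes of 0.27 for knockout over wild-type forelimbs (SE 0.10, adjusted p = 0.231) and 0.28 for wild-type hindlimbs over forelimbs (SE 0.10, adjusted p = 0.145). Tyms, the thymidylate synthase, differed by 0.17 (adjusted p = 0.331) and 0.18 (adjusted p = 0.241) in the same 2 comparisons, and Pcna, the sliding clamp, by 0.15 (adjusted p = 0.369) and 0.14 (adjusted p = 0.327). E2f1, which switches on many of these genes, differed little between group means, at 6.09 ± 0.14 in knockout hindlimbs, 6.14 ± 0.17 in knockout forelimbs, 6.12 ± 0.074 in wild-type hindlimbs and 6.06 ± 0.11 in wild-type forelimbs.

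**Figure D4:**
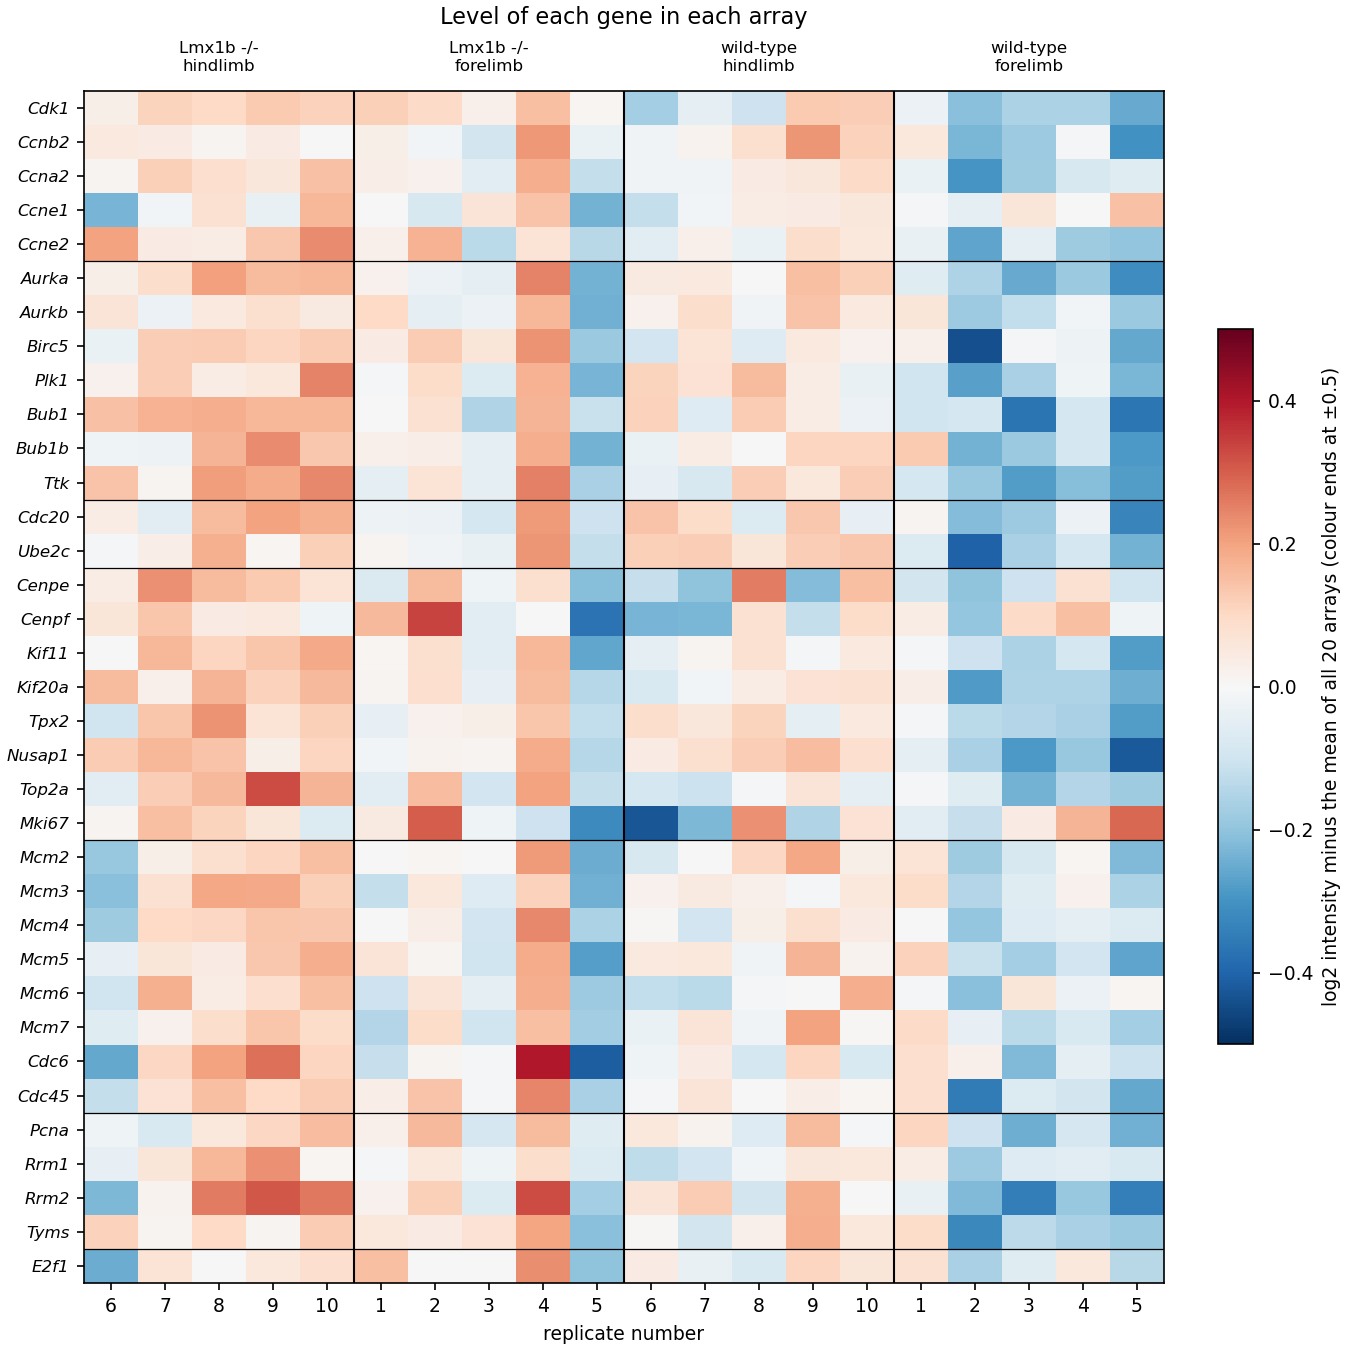
Log2 intensity of each of the 35 genes in each array, minus that gene's mean over all 20 arrays, with groups as column blocks and roles as row blocks; red is above and blue below the gene's mean. Wild-type forelimb arrays 2, 3, 4 and 5 are blue for most genes, array 4 often faintly. Within the knockout forelimbs array 4 is red and array 5 blue for most genes.

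The 35 genes varied together from limb to limb within a group. After subtracting group means, the correlation over the 20 arrays had a median of 0.57 across 595 pairs of these genes, and 584 pairs were above 0. Each gene against the mean of the other 34 had a median of 0.77, from 0.22 for Mki67, 0.44 for Cenpe and 0.51 for Cenpf to 0.93 for Mcm2, while 11262 other genes with a mean log2 of at least 5 had a median of 0.20 against the same mean. These correlations describe the arrays and share their RNA, labelling and normalisation. Pairs of replication genes had a median of 0.63, pairs of mitotic genes 0.54 and pairs across the sides 0.57.

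Some lists of cell type markers also differed between these groups, skeletal muscle most, and others had few or no genes past the test. All 22 skeletal muscle genes, among them Myod1, Myog, Acta1 and Myh3, were lower in wild-type hindlimbs than in wild-type forelimbs. All 22 passed the test, against 2.49% of all genes as lower. Over both genotypes 21 of 22 did so, against 3.99%, and 5 of 22 were lower in knockouts over both limb types, against 1.57%. Their per-array mean ran from 7.05 to 7.44 in knockout hindlimbs, 7.30 to 7.71 in knockout forelimbs, 6.96 to 7.42 in wild-type hindlimbs and 7.72 to 8.18 in wild-type forelimbs, and no probe set was at 0. With that mean as a covariate the median change of the 35 genes was 0.05 for wild-type hindlimb over forelimb and 0.05 over both genotypes, and 0 of 35 passed in either (limma). In that fit few genes of any kind passed: 11 of all genes between wild-type limb types, against 650 without the covariate, and 35 over both genotypes. Since the muscle mean did not overlap between wild-type limb types, the fit can hardly separate muscle level from limb type there. Osteoblast and perichondrium genes were lower in wild-type hindlimbs for 6 of 8 and in knockouts over both limb types for 4 of 8. Macrophage genes were so for 3 of 13 and 2 of 13, and the part of these 2 lists in the results was not tested. In forelimbs alone, 5 of 22 muscle, 5 of 8 osteoblast and 2 of 13 macrophage genes were lower in knockouts (medians -0.43, -0.50 and -0.24), against 1.03% of all genes. In hindlimbs alone 0 of 22, 0 of 8 and 0 of 13 were (medians -0.04, -0.13 and -0.11), against 0.226%. Knockout forelimbs also had 2 of 10 nerve and 1 of 13 endothelial genes lower, and 2 of 14 limb mesenchyme genes higher, against 0.241% of all genes as higher. Knockout hindlimbs had 1 of 10 nerve and 1 of 14 limb mesenchyme genes lower. Of 15 cartilage, 10 erythroid and 13 endothelial genes, 0, 0 and 1 were lower in wild-type hindlimbs. Of 14 limb mesenchyme genes 5 were higher there, against 0.772% of all genes. Of 10 peripheral nerve genes 2 were higher and 2 lower in wild-type hindlimbs, and of 12 epidermis genes 1 was lower. In knockouts over both limb types, 2 of 13 endothelial genes were lower and 1 of 10 nerve genes was higher and 2 lower. Of 14 limb mesenchyme genes 2 were higher and 1 lower in that comparison, against 0.466% and 1.57% of all genes. There 0 of the cartilage, erythroid and epidermis genes passed limma's test. At an unadjusted p under 0.05, 1 of 10 erythroid genes was higher and 4 lower, and 0 of the other 2 lists. Of all 19936 genes, 1261 were higher and 1667 lower at that level.

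**Figure D5:**
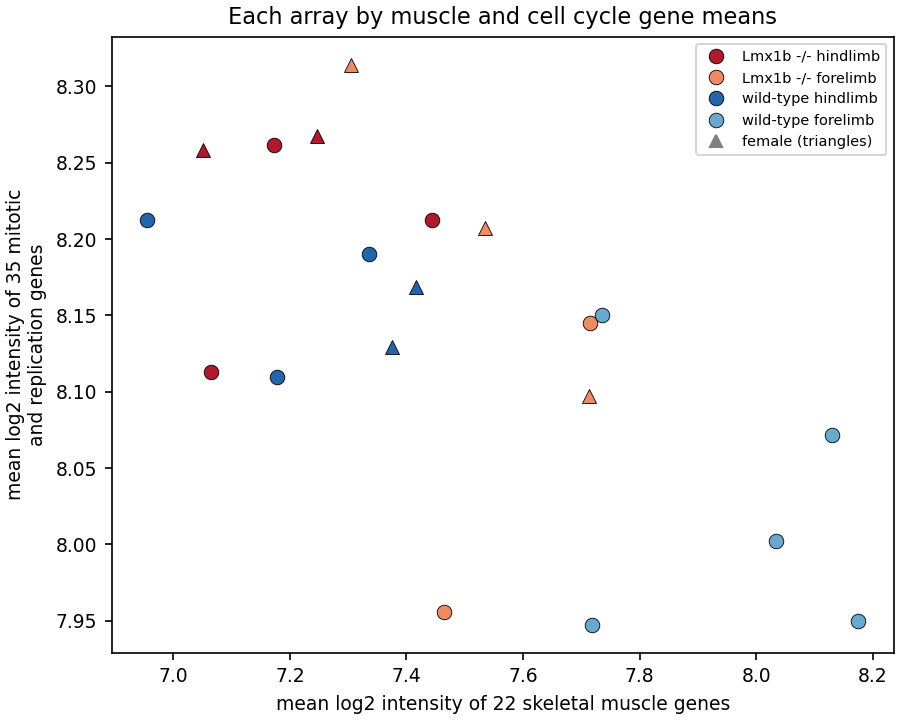
Each array by its mean log2 intensity over 22 skeletal muscle genes (horizontal) and over the 35 mitotic and replication genes (vertical), coloured by group, with triangles for female arrays. Hindlimb arrays of both genotypes lie to the left, at 6.96 to 7.44 in muscle genes, and the wild-type forelimbs to the right, at 7.72 to 8.18 and at 7.95 to 8.15 in the 35 genes.

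Sex differed between the forelimb groups. The 3 female knockout forelimbs had a mean over the 35 genes of 8.10, 8.21 and 8.31, the 2 male ones 7.96 and 8.15, and the 5 male wild-type forelimbs 7.95 to 8.15. In male arrays alone the median change, knockout over wild type, was 0.03 over both limb types, 0.04 in forelimbs and 0.01 in hindlimbs, and 0 of 35 passed. For wild-type hindlimb over forelimb the male arrays gave a median of 0.17, with 0 of 35 past limma's test in the smaller set.

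The other genes of the cell cycle, 139 measured in 4 lists, were read in the same fit. Over both limb types 4 of 139 were higher, where 0.466% of all genes were, and 2 lower, no larger a share than the 1.57% of all genes: Spc25, a kinetochore subunit, by 0.25 (adjusted p = 0.00742), the phosphatase gene Cdc25c by 0.22 (adjusted p = 0.0267), Depdc1a by 0.24 (adjusted p = 0.0472) and Dbf4, the partner of the replication kinase Cdc7, by 0.19 (adjusted p = 0.0407), while the growth-promoting transcription factor gene Myc was at -0.32 (adjusted p = 0.0424) and the growth-arrest gene Gadd45g at -0.23 (adjusted p = 0.0268). In forelimbs Spc25 alone passed (0.29, adjusted p = 0.0392). In hindlimbs, in the difference of the genotype effects and between knockout limb types 0 of 139 passed. At an unadjusted p under 0.05 there were 6, 1 and 15 higher (against 2.15%, 2.07% and 5.11% of all genes). At that level 4, 2 and 7 of 139 were lower, against 719, 310 and 946 of all 19936 genes. Between wild-type limb types 8 of 139 were higher in hindlimbs, where 0.772% of all genes were, and 3 lower, again no larger a share than the 2.49% of all genes. The 5 with the smallest p among the higher ones were Tk1, a thymidine kinase, by 0.25 (adjusted p = 0.0153), the microtubule depolymerase gene Kif2c by 0.31 (adjusted p = 0.019), Cdca5, a cohesin regulator, by 0.27 (adjusted p = 0.0241), Dbf4 by 0.26 (adjusted p = 0.035) and Cdca3 by 0.26 (adjusted p = 0.0372). The 3 lower ones were Rb1, whose product holds back E2F factors, at -0.55 (adjusted p = 0.0151), Myc at -0.47 (adjusted p = 0.0248) and Cdk6, a kinase that inactivates the Rb1 protein, at -0.38 (adjusted p = 0.0297). Over both genotypes 17 were higher, against 1.97% of all genes, and 4 lower, under the 3.99% of all genes, with Dbf4 (0.21), Cdc25c (0.22), Tk1 (0.17), Mad2l1 (0.20) and Chaf1b (0.18) of smallest p among the higher ones and Myc, Rb1, Gadd45g and Cdk6 as the lower ones (log2 changes of -0.40, -0.43, -0.26 and -0.29).

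By list, the other mitotic genes had a median of 0.16 between wild-type hindlimbs and forelimbs with 4 of 59 past the test, the other replication genes 0.13 with 4 of 44, and other G1/S regulators 0.10 with 0 of 23 higher and 3 lower, whereas CDK inhibitors and exit genes had -0.05 with 0 of 13 either way. Myc averaged 7.30 ± 0.20 in knockout hindlimbs, 7.64 ± 0.20 in knockout forelimbs, 7.56 ± 0.22 in wild-type hindlimbs and 8.02 ± 0.14 in wild-type forelimbs, an order opposite to that of the 35 genes. Mycn, its relative expressed in limb mesenchyme, ran the other way, at 7.36 ± 0.16 and 7.29 ± 0.11 in knockout hindlimbs and forelimbs against 7.27 ± 0.16 and 6.96 ± 0.11 in wild-type ones, and just missed the test in wild-type hindlimb over forelimb (0.31, adjusted p = 0.0503). The cyclin D genes Ccnd1 and Ccnd2, which carry growth signals to the cell cycle, differed by -0.03 (adjusted p = 0.892) and 0.01 (adjusted p = 0.935) in the pooled genotype comparison, and the inhibitor gene Cdkn1c by -0.09 (adjusted p = 0.321). Foxm1 and Mybl2, transcription factors of the late cell cycle, differed by 0.01 and 0.05, the licensing factor gene Cdt1 by -0.03 and its inhibitor Gmnn by 0.06, with adjusted p from 0.731 (Mybl2) to 0.958 (Foxm1) among the 4.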

How the data were processed

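Single limbs of Lmx1b -/- and wild-type embryos were measured on 20 arrays from 300 ng of total RNA each. The deposited intensity values are RMA summaries, per the submitters' processing notes, and their range shows a linear scale. The RMA version is not given in the sources used here, nor is a genome build. The log2 of these deposited values was taken with no pseudocount. Of 35512 probe sets, 1 was empty, 21789 carried 1 gene symbol, 1621 several and 12101 none. The probe set with the highest mean stood for a gene, giving 19936 genes, of which 1001 had several probe sets (Pcna and Top2a among the 35).

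All 20 arrays entered 1 fit with 4 group means (limma 3.58.1 in R 4.3.3, lmFit, contrasts and eBayes), with Benjamini-Hochberg adjustment over all genes and a threshold of 0.05. No 2 arrays were identical (0 pairs). The number of arrays limits the precision. The fit was tested on simulated data: for knockout minus wild type over both limb types it recovered 56.7% of genes changed by 0.3 and 97% of those changed by 0.6 on the log2 scale, and for wild-type hindlimb minus forelimb 29.9% and 85.1%. Tables and figures were made with Python 3.11.15.

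The members and lists (4 other cell cycle lists and markers of muscle, cartilage, osteoblast, erythroid, endothelial, macrophage, nerve, epidermis and limb mesenchyme cells) were chosen with earlier results of these data known. Values of every array were given for genes past the threshold in any comparison and for the 4 of the 35 with the smallest p in each. Of the other cell cycle genes, those past the threshold were named, at most 5 a direction, with a few regulators whatever their result. Alternatives were other scalings, probe set rules, filters, variance priors and array weights, sex, side, muscle and erythroid covariates, blocks, and each array left out.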

Additional observations from a re-analysis of the deposited data

Results flagged for a closer look

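Within groups of 5, 6 of 152 checked sets of values had an array far from the other 4, where chance gives about 1 in 20. Of these, 4 were low in knockout hindlimb 6: Birc5 at 6.6949 (the other 4 at 6.84 to 6.86), Mcm4 at 8.2967 (8.58 to 8.61), Cdc45 at 7.1726 (7.37 to 7.44) and E2f1 at 5.8561 (6.10 to 6.18). Knockout forelimb 4 was high for Cdc20, at 7.563 (7.25 to 7.32), and wild-type hindlimb 8 low for Ube2c, at 7.4941 (7.55 to 7.57).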

How the results depend on the processing

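The median change of the 35 genes kept its direction under every alternative run in each of the 7 comparisons, whereas counts past the threshold moved in 4 of the 7; in the other 3 (hindlimb genotypes, the difference of genotype effects, knockout limb types) the count was 0 under every alternative run. Over both limb types the count for knockout minus wild type, 1, was 0 with arrays centred on their medians, quantile normalisation, the Y-linked or erythroid covariate, male arrays or the muscle covariate, 2 with the mean of all probe sets or the random block, and 5 with array weights; it was 0 to 2 without single arrays. In forelimbs 0 was 1 with the dim-gene filter, the intensity trend or the random block and 2 with array weights, and 0 to 2 without single arrays (2, Cdk1 and Nusap1, without wild-type forelimb 1; 1 without wild-type hindlimb 9), and the median was 0.0392 in male arrays. Between wild-type limb types 3 was 0 when centred, in male arrays or with the muscle covariate (median 0.0532), 5 with the filter, the trend or the erythroid covariate, and 6 with quantile normalisation or weights, and 2 to 6 without single arrays (6 without wild-type forelimb 1). Over both genotypes 5 was 0 when centred, in male arrays or with the muscle covariate, 8 with the trend, 9 with the filter or weights, and 10 with quantile normalisation, and 3 to 10 without single arrays (10 without knockout forelimb 4, 8 without wild-type forelimb 1, 7 without knockout hindlimb 6, 3 without knockout hindlimb 10). The male fit has fewer arrays; the cause of the other shifts was not tested. With the mean of all probe sets the per-array mean was 8.1241 in knockout hindlimbs, 8.0629 in wild-type hindlimbs and 7.9258 in wild-type forelimbs. In knockout forelimbs it moved by less than that group's SD, so its 8.14 above is not to be set beside these values. Of the 35 genes, Pcna and Top2a alone had a further probe set with their symbol alone. It averaged 10.26 against 10.28 for Pcna and 2.67 against 9.51 for Top2a. Over all genes, counts ran from 67 to 768 for knockout minus wild type over both limb types, against 406, and from 11 to 1260 between wild-type limb types, against 650.

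The numbers in the labels paired the arrays weakly if at all. Deviations of same-numbered arrays had a median correlation of 0.052 by title number and 0.021 by description number, with 4 of 10 pairs over 0.1 in each. Arrays with different numbers had medians of -0.035 and -0.012, with 10 and 11 of 40 pairs over 0.1. Of 6 sets of arrays that share genotype and description number, 4 held both sexes. With the replicate block, 1 of 35 passed for knockout minus wild type (title number), and 2 passed between wild-type limb types and 3 over both genotypes (description number).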

Other observations

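Outside the lists, the genes whose within-group deviations over the 20 arrays ran closest to the mean of the 35 were Exo1 (r = 0.94), an exonuclease gene of DNA mismatch repair, and Arhgap19 (r = 0.94). Those that ran most opposite were Fxyd1 (r = -0.85) and Tmem9b (r = -0.85), and the keratin genes of differentiating epidermis, Krt10 (r = -0.80) and Krt1 (r = -0.77), were also opposite. These genes were picked after their values were seen, among 11262 genes on shared arrays, so the correlations are descriptions only.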
